A study of Mus musculus with 2 samples.

Results

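The miR-17-92 cluster and its paralogs, the miR-106a-363 and miR-106b-25 clusters, were examined in the miRNA cargo of LLC-derived exosomes. A list of 10 guide strands of these 3 clusters, among the 1881 mouse miRNAs on the array, was taken by name. It is not complete, since miR-106a-363 also encodes miR-18b-5p and miR-363-3p, which carry seeds of listed strands and are given beside them, and miR-106a-5p, which was not analysed here. LLC is a mouse Lewis lung carcinoma cell line. Its cells were cultured without any treatment named in the labels, and exosomes were collected from the culture supernatant by ultracentrifugation. Exosomes are small vesicles that cells release and that carry RNA. Their RNA was labelled with Cy3 and hybridized to 2 Agilent mouse miRNA microarrays, 1 for each of 2 independent experiments. All values therefore belong to 1 group, and neither LLC cells nor exosomes of other cells were compared with it. The number of arrays limits the precision of every level.

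The 3 clusters arose by duplication of an ancestral cluster, and each is transcribed as a long primary transcript from which several miRNA hairpins are cut. The miR-17-92 transcript is also called oncomiR-1, because it is amplified or overexpressed in lymphomas and in many carcinomas, small-cell lung cancer among them. MYC and E2F factors activate its transcription. A miRNA finds its targets mainly through its seed, bases 2 to 8, so that members with the same seed share many targets. The miR-17 family restrains the cell cycle inhibitor p21 and the pro-apoptotic protein BIM, and the miR-92 family acts on BIM and on integrin subunits. In the mouse reference assembly GRCm38.p6, the 6 hairpins of miR-17-92 lay at chr14:115043671-115044506 on the plus strand. The 6 hairpins of miR-106a-363 lay at chrX:52741693-52742567 on the minus strand. The 3 hairpins of miR-106b-25 lay at chr5:138165321-138165818 on the minus strand, within the span of *Mcm7*, a protein-coding gene for a subunit of the replicative DNA helicase. The guide strands miR-19b-3p and miR-92a-3p are made from the chromosome 14 cluster and from the X chromosome cluster, and the array cannot tell these origins apart.

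All 10 guide strands matched a mature sequence of RefSeq (GRCm38.p6). They are shown because sequences that differ at few bases differed in whether they were detected. They are written 5′ to 3′ with the seed in capitals, and grouped by seed.
mmu-miR-17-5p: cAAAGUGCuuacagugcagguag
mmu-miR-20a-5p: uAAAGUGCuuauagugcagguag
mmu-miR-20b-5p: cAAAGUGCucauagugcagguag
mmu-miR-106b-5p: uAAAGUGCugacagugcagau
mmu-miR-93-5p: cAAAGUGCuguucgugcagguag
mmu-miR-18a-5p: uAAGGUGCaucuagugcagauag
mmu-miR-19a-3p: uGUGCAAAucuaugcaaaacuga
mmu-miR-19b-3p: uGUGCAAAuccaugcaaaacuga
mmu-miR-92a-3p: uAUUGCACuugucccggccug
mmu-miR-25-3p: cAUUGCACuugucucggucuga

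The first 5 share the seed of the miR-17 family, miR-18a-5p has a related seed that no other listed strand has, the next pair belongs to the miR-19 family, and the last pair to the miR-92 family. Base differences are given with the base of the strand named first, the position counted from 1 at the 5′ end, and the base of the strand named second. From miR-17-5p to miR-20a-5p the differences were C1U and C12U, and from miR-17-5p to miR-20b-5p they were U10C and C12U. From miR-20a-5p to miR-20b-5p they were U1C and U10C. The miR-19 strands were closest to each other, with 22 of 23 bases identical and the difference U11C from miR-19a-3p to miR-19b-3p. Over the 21 positions that could be compared, miR-92a-3p and miR-25-3p differed by U1C, C14U and C18U. The files used here hold 0 columns of probe sequences, so how far a probe separates such relatives could not be read from them.

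Each guide strand was measured by 2 probes, and each probe by 15 spots on an array. Intensities are fluorescence units with the background subtracted by the scanner software, so that a spot can lie below 0. Each probe has a total signal and an error of that total, and it was called detected where the signal was more than 3 errors. Detection of a miRNA needed at least 1 such probe. Negative control spots spanned -7.17 to 7.46 in replicate 1 and -6.88 to 7.85 in replicate 2. Replicate 1 had 483 detected probes, replicate 2 had 406, and 393 were common to them. For levels, the mean intensity of a probe was scaled by the 75th percentile that these 393 probes had on its array, 50.2 in replicate 1 and 39.95 in replicate 2. The log2 was then taken, so that a level of 0 is a signal at that percentile. Probes bind their targets with different strength, and levels and ranks therefore describe signal, which cannot be read as an amount of RNA.

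LLC-derived exosomes gave signal for 5 of the 10 guide strands on both arrays, namely miR-20a-5p, miR-92a-3p, miR-19b-3p, miR-106b-5p and miR-20b-5p. The other 5, miR-17-5p, miR-18a-5p, miR-19a-3p, miR-93-5p and miR-25-3p, were detected on neither array. No guide strand changed its call between the experiments. Among all 1881 miRNAs, 37 were detected in replicate 1 only and 7 in replicate 2 only, while 1621 were detected on neither array. Of all 1881 miRNAs, 216 (11.5%) were detected on both arrays. The count moved with the call. Only miR-20a-5p, 1 of 10, passed when every probe had to exceed 3 errors, as did 7.5% of all miRNAs. With at least 50% of a probe's spots well above background, 3 of 10 passed (miR-20a-5p, miR-19b-3p and miR-92a-3p), beside 7.07% of all miRNAs. With at least 50% of a probe's spots positive and significant, miR-93-5p and miR-25-3p joined the first 5, so that 7 of 10 passed, beside 25.4% of all miRNAs. By cluster, 3 of 6 guide strands of miR-17-92 were detected and 1 of 3 of miR-106b-25. All 3 of the guide strands listed here that miR-106a-363 encodes were detected, but 2 of these are miR-19b-3p and miR-92a-3p, which miR-17-92 encodes as well, and the unlisted miR-18b-5p and miR-363-3p of that cluster were not detected. By seed, 3 of 5 listed strands of the miR-17 family were detected, 1 of 2 of the miR-19 family, 1 of 2 of the miR-92 family, and miR-18a-5p was not. Every family with more than 1 listed strand therefore held a detected and an undetected strand. Length and base composition overlapped between the sets, with a GC content of 39.1% to 57.1% in the detected strands and 34.8% to 52.2% in the undetected ones.

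**Figure D1:**
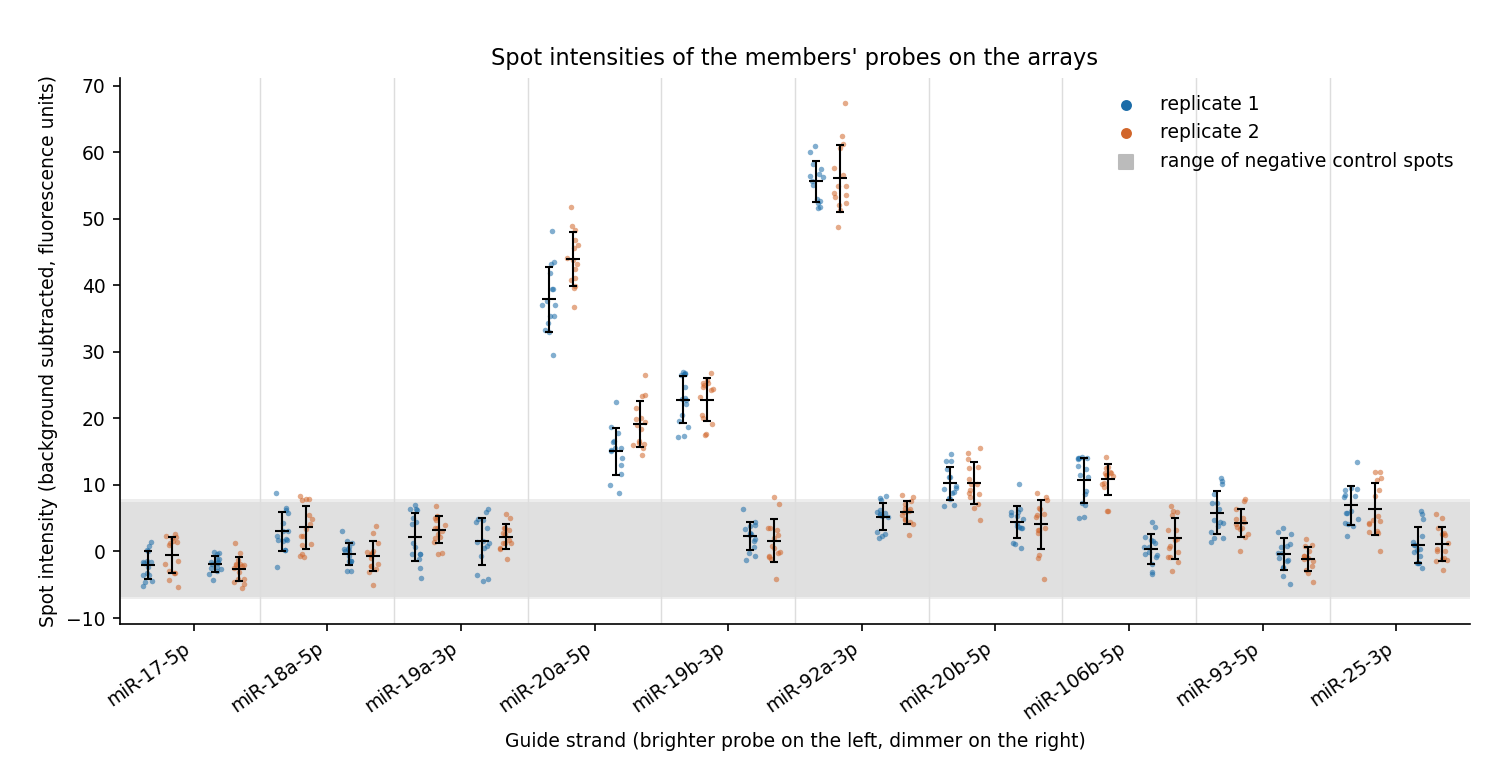
Intensity of every spot of the 10 guide strands, in background-subtracted fluorescence units, with the brighter probe of each strand on the left and the dimmer on the right, replicate 1 in blue and replicate 2 in orange. Black marks are the mean ± SD over spots and the grey band is the range of the negative control spots. The brighter probes of miR-92a-3p, miR-20a-5p and miR-19b-3p lay wholly above the band, whereas those of miR-20b-5p and miR-106b-5p had a mean above the band with some spots inside it.

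In the miR-17 family, miR-20a-5p was the best measured strand. Its brighter probe had a mean intensity of 37.9 ± 4.85 (SD over spots) in replicate 1 and 43.95 ± 4.04 in replicate 2, at 7.81 and 8.19 times its error. Its other probe had 15.1 ± 3.56 and 19.1 ± 3.46, at 4.47 and 5.29 times its error. Both probes were thus detected on both arrays, which was so for 1 of the 5 detected guide strands and for 141 of all 216 detected miRNAs (65.3%). The lowest spot of the brighter probe, 29.5 in replicate 1 and 36.8 in replicate 2, lay above every negative control spot of its array.

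The paralog miR-20b-5p, encoded on the X chromosome, lay close to the detection limit. Its brighter probe had a mean intensity of 10.2 ± 2.46 in replicate 1 and 10.3 ± 3.14 in replicate 2, which was 3.22 and 3.18 times its error. Its dimmer probe, with 4.38 and 4.06, was not detected. The strand miR-106b-5p, from the *Mcm7* locus, was similar, with 10.71 ± 3.38 and 10.82 ± 2.30 at 3.35 and 3.34 times the error. Its dimmer probe had a mean of 0.40 in replicate 1 and 1.95 in replicate 2. No spot of either brighter probe was flagged as well above background in replicate 1, and 1 spot of miR-20b-5p was in replicate 2.

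The remaining strands of this family were not detected. The founding strand miR-17-5p, which is cut from the same primary transcript as miR-20a-5p, had probe means of -1.86 and -2.04 in replicate 1. In replicate 2 the same probes gave -2.61 and -0.533. All 15 spots of the first probe were at or below 0 in replicate 1 and 14 of 15 in replicate 2, and none of the spots of either probe was called positive and significant. The intensities of miR-17-5p therefore lay inside the range of the negative controls, while those of both miR-20a-5p probes lay above it in the mean. The brighter probe of miR-93-5p, the neighbour of miR-106b-5p in the *Mcm7* locus, had 5.81 ± 3.25 and 4.27 ± 2.17, at 1.90 and 1.38 times its error. The listed strand with the related seed, miR-18a-5p, had 3.01 ± 2.88 and 3.64 ± 3.26 at its brighter probe, which was 0.998 and 1.18 times the error. Its paralog with the same seed, miR-18b-5p of the X chromosome cluster, had 6.27 ± 4.95 and 7.33 ± 2.66 at its brightest probe, at 2.03 and 2.33 times the error, and was not detected either.

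In the miR-19 family, the strand that differs at 1 base was the one with signal. The brighter probe of miR-19b-3p had 22.8 ± 3.51 in replicate 1 and 22.8 ± 3.18 in replicate 2, at 6.04 and 5.97 times its error. Its dimmer probe had 2.28 and 1.62, at 0.76 and 0.53 times its error, and was not detected. The brighter probe of miR-19a-3p had 2.19 ± 3.65 and 3.24 ± 2.03, at 0.73 and 1.05 times its error. The spots of miR-19a-3p overlapped those of the negative controls throughout, and the lowest spot of the brighter miR-19b-3p probe was 17.2 in replicate 1 and 17.5 in replicate 2.

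In the miR-92 family, miR-92a-3p gave the brightest probe of all 10 guide strands. That probe had 55.6 ± 3.02 in replicate 1 and 56.0 ± 4.98 in replicate 2, at 8.80 and 8.76 times its error, and its lowest spots were 51.6 and 48.8. The second probe of miR-92a-3p, with 5.25 ± 2.08 and 5.89 ± 1.69, stayed below the limit at 1.72 and 1.89 times the error. By its dimmer probe alone, this strand would not have been called detected. The strand miR-25-3p was the nearest of the undetected ones to the limit. Its brighter probe had 6.91 ± 2.93 and 6.35 ± 3.86, at 2.24 and 2.02 times its error, with 14 and 12 of 15 spots called positive and significant. The error limit thus fell between miR-25-3p and the pair of miR-20b-5p and miR-106b-5p.

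Over all 20 probes of the guide strands, 6 were detected on both arrays and 14 on neither, against 393 of 4415 probes of the array (8.90%). The probes of the 5 undetected strands had mean intensities between -2.04 and 6.91 in replicate 1, and between -2.61 and 6.35 in replicate 2, with 4 of 10 below 0 on each array. A ratio between the probes of a strand could be measured for miR-20a-5p alone, where the brighter probe was 2.52 times as intense as the dimmer in replicate 1 and 2.30 times in replicate 2. For the other 4 detected strands the dimmer probe was not detected. Levels were therefore given both by the brightest probe and by the mean over probes, which includes such dim probes.

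By its brightest probe, miR-92a-3p had a level of 0.15 in replicate 1 and 0.49 in replicate 2 on the log2 scale, with a mean of 0.32 ± 0.24 (SD, n = 2). It ranked 54 among the 216 detected miRNAs. The level of miR-20a-5p was -0.40 and 0.14, with a mean of -0.13 ± 0.38 and rank 63. The level of miR-19b-3p was -1.14 and -0.81, with a mean of -0.97 ± 0.23 and rank 100. In the mean of both arrays, these 3 strands lay above the median of the detected miRNAs, which was -1.08. In replicate 1, however, miR-19b-3p lay below the median of that array, -1.06. Of the 3, only miR-20a-5p is particular to miR-17-92, since miR-106a-363 encodes miR-92a-3p and miR-19b-3p as well. The level of miR-106b-5p was -2.23 and -1.88, with a mean of -2.06 ± 0.24 and rank 206. The level of miR-20b-5p was -2.30 and -1.96, with a mean of -2.13 ± 0.24 and rank 214. Both miR-106b-5p and miR-20b-5p were thus among the dimmest miRNAs that passed the call, with 94.9% and 98.6% of the detected miRNAs above them.

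The order of the brightest probes, miR-92a-3p, miR-20a-5p, miR-19b-3p, miR-106b-5p and miR-20b-5p, was the same on both arrays. The step from miR-92a-3p to miR-20a-5p was 0.55 in replicate 1 and 0.35 in replicate 2, a mean difference of 0.45 ± 0.14. These steps were taken within each array, where the scaling cancels. The step from miR-20a-5p to miR-19b-3p was 0.84 ± 0.15, and that from miR-19b-3p to miR-106b-5p was 1.08 ± 0.01. Each of these 3 steps exceeded its own SD between the arrays. That SD rests on 2 arrays and does not include the unequal binding of different probes. The step from miR-106b-5p to miR-20b-5p was 0.07 in replicate 1 and 0.08 in replicate 2, and in intensity the probe means of this pair differed by less than the SD over the spots of either probe.

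With the mean over the probes of a miRNA, the order changed, and miR-92a-3p and miR-19b-3p moved furthest in rank. The level of miR-20a-5p was -1.07 and -0.46 (mean -0.77 ± 0.43, rank 64), and it then stood first. The level of miR-92a-3p was -1.55 and -1.14 (mean -1.35 ± 0.29, rank 102). The level of miR-19b-3p was -2.80 and -2.71 (mean -2.76 ± 0.06, rank 200), that of miR-20b-5p -2.91 and -2.63 (mean -2.77 ± 0.20, rank 201), and that of miR-106b-5p -4.60 and -3.12 (mean -3.86 ± 1.05, rank 207). The level of miR-20a-5p exceeded that of miR-92a-3p on each array, whereas the order of miR-19b-3p and miR-20b-5p turned between the arrays. The median of the 5 detected strands was -2.76, and 2 of the 5 were above the median of all 216 detected miRNAs, which was -1.41. By the brightest probe, the median of the 5 was -0.97 and 3 of the 5 were above the median in the mean of both arrays, but miR-19b-3p was below it in replicate 1. Over the 2 arrays, the detected miRNAs whose levels lay nearest to the median of the guide strands were miR-5132-3p, at a Euclidean distance of 0.04, miR-494-3p, at 0.22, and miR-338-5p, at 0.27.

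**Figure D2:**
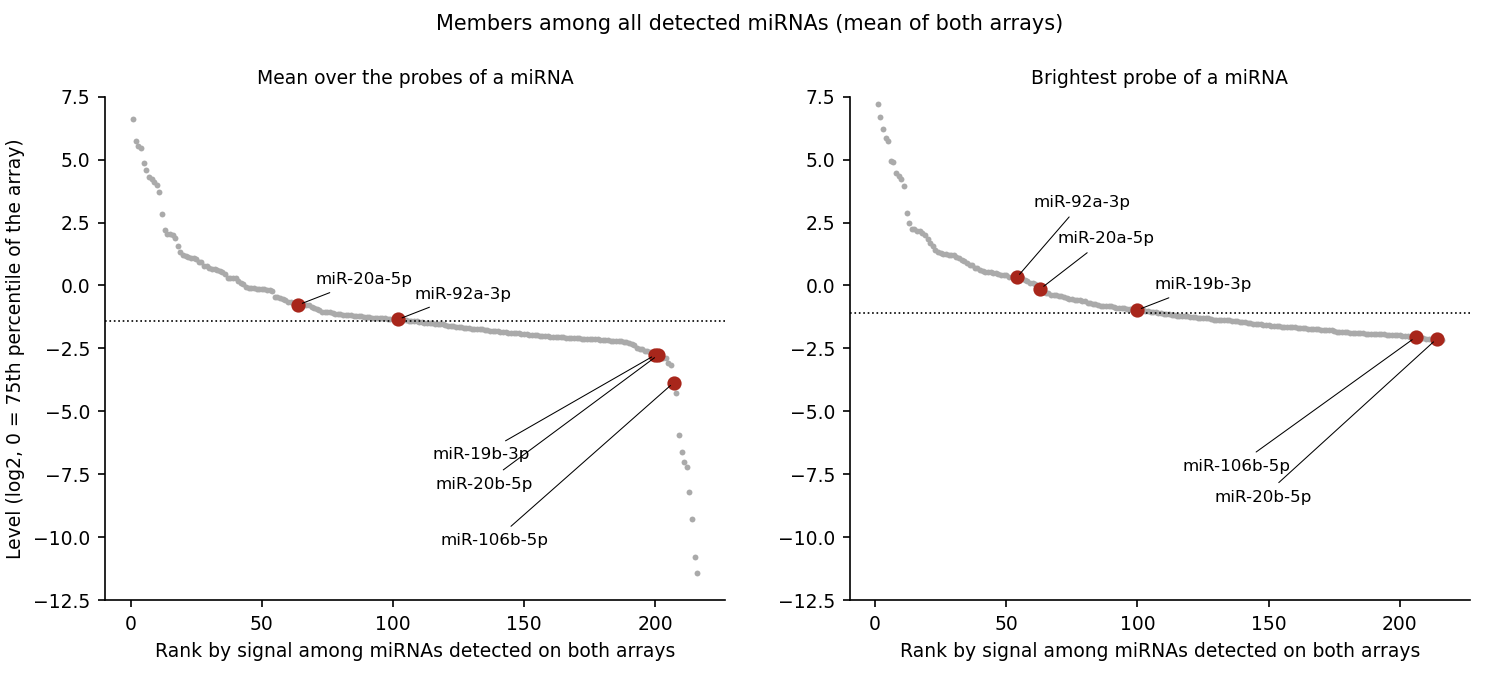
Level of the 216 miRNAs detected on both arrays (grey) against their rank by signal, with the 5 detected guide strands in red and the median of all 216 as a dotted line. The y axis is log2 with 0 at the 75th percentile of the array. On the left, where the probes of a miRNA were averaged, miR-19b-3p ranked 200, and on the right, where its brightest probe was taken, it ranked 100.

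Between the 2 experiments, the raw intensities of these strands were close. Before scaling, the ratio of replicate 2 to replicate 1 was 0.9999 for the brighter probe of miR-19b-3p and 1.01 for those of miR-92a-3p, miR-106b-5p and miR-20b-5p. The probes of miR-20a-5p had ratios of 1.16 for the brighter and 1.27 for the dimmer. Over the 6 detected probes the median ratio was 1.01, and over all 393 probes detected on both arrays it was 0.953, with a range from 0.0990 to 2.60. The scaled levels of the brightest probes of all 5 strands were higher in replicate 2, which was divided by a lower percentile. For miR-20a-5p, the raw intensity of the brighter probe was also higher, with the ratio of 1.16 given above. The rise in scaled level was 0.33 to 0.34 for miR-19b-3p, miR-92a-3p, miR-106b-5p and miR-20b-5p. For miR-20a-5p it was 0.54 and 0.67 at its probes. With 1 array for each experiment, a difference between the experiments cannot be told apart from a difference between the arrays.

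**Figure D3:**
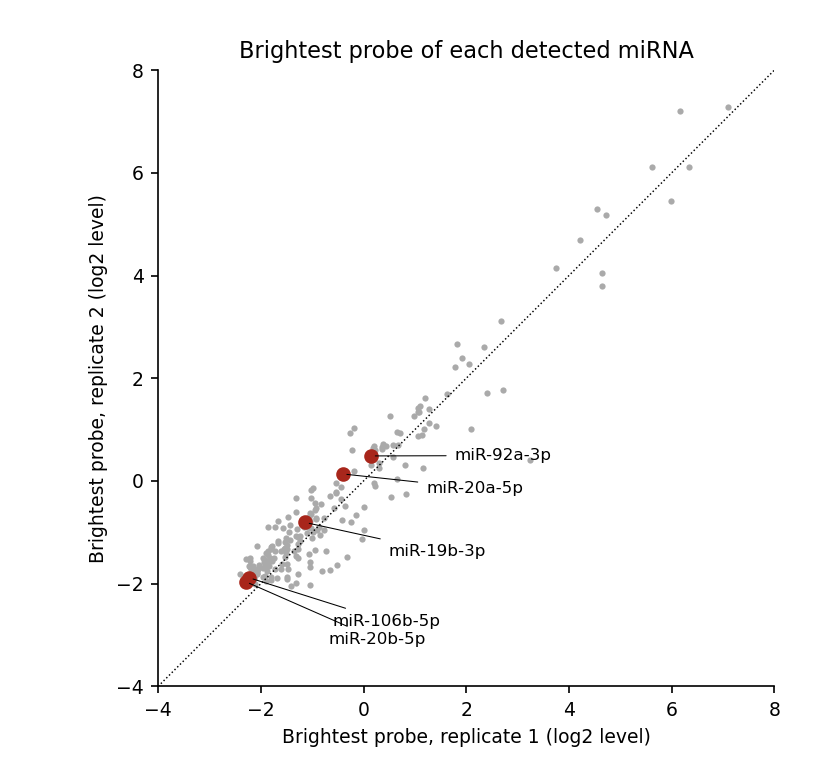
Scaled level of the brightest probe of each of the 216 detected miRNAs in replicate 1 and replicate 2 (log2, 0 at the 75th percentile of each array), with the 5 detected guide strands in red and the line of equal levels dotted. All 5 lie above the line, with miR-20a-5p at -0.40 in replicate 1 and 0.14 in replicate 2.

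The remaining strands of the 3 clusters were measured beside the listed ones. Once a hairpin is cut, one strand is usually kept by the Argonaute protein and its partner is mostly degraded. The 17 remaining strands on the array include such partners of the listed strands, and also strands of the miR-18b, miR-363 and miR-106a hairpins, which have no listed strand. Of these 17, 0 were detected on either array, and of all 1881 miRNAs 1621 were likewise detected on neither. Their 50 probes had mean intensities between -2.36 and 7.70 in replicate 1, and between -3.05 and 7.33 in replicate 2, and 23 and 27 of them were at or below 0. The strand nearest to the limit was miR-18b-3p in replicate 1, at 2.48 times its error, and miR-18b-5p in replicate 2, at 2.33 times. The partner strands of miR-20a-5p, miR-19b-3p and miR-92a-3p were among those that were not detected.

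Strands outside the clusters that were found to share a seed with a guide strand were detected on neither array, as were 1621 of all 1881 miRNAs. Seeds could be read only for the 1608 array names that matched RefSeq. Among these names there were 4 such strands, namely miR-6383, miR-32-5p, miR-367-3p and miR-92b-3p. The highest was miR-92b-3p, a close relative of miR-92a-3p that differs from it by U10C and G21C over 21 positions. It reached 2.32 times its error in replicate 1 and 2.09 times in replicate 2, while the brighter probe of miR-92a-3p was at 8.80 and 8.76.

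Blood cell miRNAs were listed as well, because miR-92a and miR-25 are abundant in red blood cells and the labels describe a blood RNA kit. Of 9 blood cell miRNAs, 0 were detected on either array, beside 1621 of all 1881 miRNAs that were detected on neither. The red cell marker miR-451a had probe means of 0.868 and 2.83 in replicate 1, and 0.694 and 2.28 for the same probes in replicate 2. The highest of the list was the myeloid miR-223-3p, at 2.39 times its error in replicate 1 and 2.60 times in replicate 2. The highest red cell strand, miR-486a-5p, had 6.01 ± 2.94 and 5.77 ± 1.65 at its brighter probe, at 1.96 and 1.85 times its error, with 12 of 15 and 12 of 12 spots called positive and significant. The summed intensity of the brightest probes of the 5 red cell strands on the list was 9.28 in replicate 1 and 8.65 in replicate 2. The part of blood cell RNA in the signal of miR-92a-3p was not tested.

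**Figure D4:**
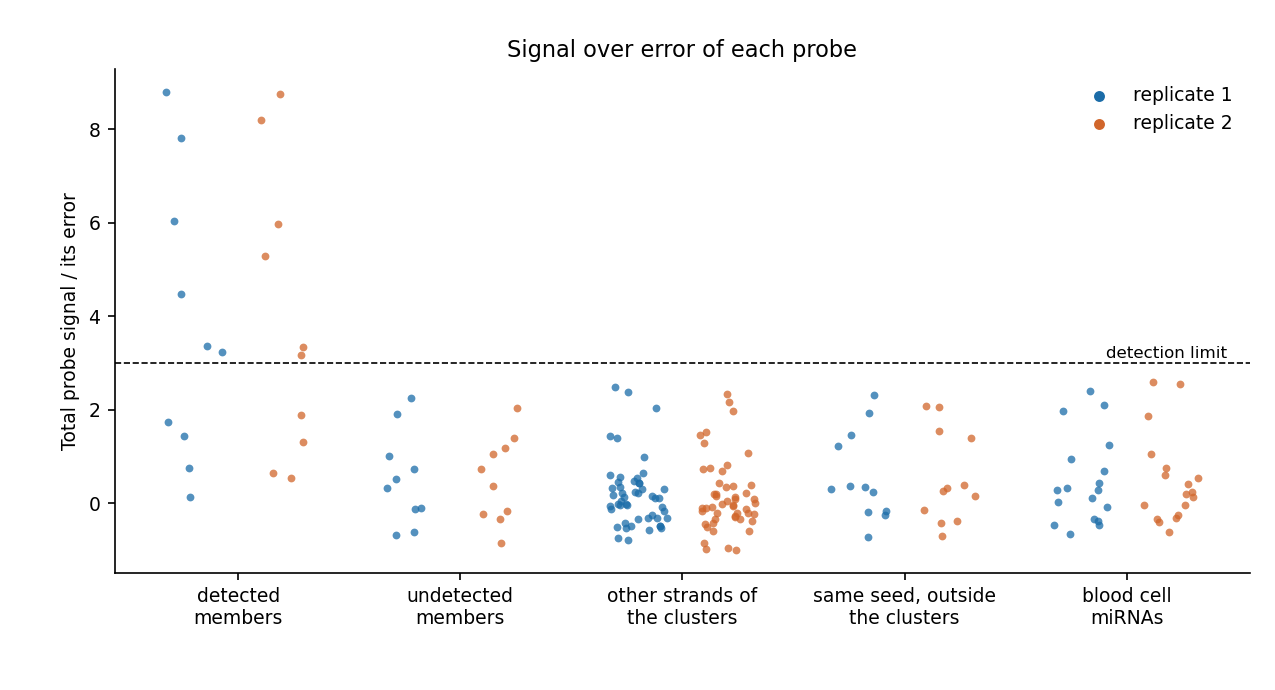
Total signal of each probe divided by its error, for the detected and undetected guide strands, the 17 other strands of the clusters, the 4 miRNAs outside the clusters with a shared seed, and the 9 blood cell miRNAs, in replicate 1 (blue) and replicate 2 (orange). The dashed line marks the detection limit of 3 errors, and only probes of the 5 detected guide strands lie above it.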

How the data were processed

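RNA of LLC-derived exosomes was measured on 2 one-colour Agilent mouse miRNA arrays, both on the same slide and from the same scanning session. The authors deposited the intensity of each spot, background-subtracted and not normalized between arrays, from Feature Extraction, version 10.7.1.1 per the file headers and 9.1 per the submitters' processing notes. The authors also deposited a log2 table for each miRNA, whose making is not given in the sources used here. The labels describe a blood RNA kit, globin removal and amplified cRNA, and the paper names another kit for exosomal miRNA in PCR. The sources do not settle which kit the array RNA came from.

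Control spots were left out, as were miRNA spots marked as outliers (1178 and 1134 of 56430), and 0 of all 58594 spots were saturated. Spots were averaged for each probe, divided by the 75th percentile over probes detected on both arrays and log2 transformed, with values at or below 0 set to the lowest positive value, and probes were averaged for each miRNA. Spots were averaged before the log, since spots at or below 0 would otherwise carry the floor into dim probes, and the other order was tried as an alternative chosen after seeing the data. With 1 group of 2 arrays, no test was made and no p-value computed. Recomputed calls were checked against the software's own, and levels were tested on simulated arrays, where 200 of 200 miRNAs with signal were detected. All simulated signals exceeded those of the brighter probes of miR-19b-3p, miR-20b-5p and miR-106b-5p, and the probes of a miRNA shared the same signal. The simulation therefore does not test calls near 3 errors. The named miRNAs are the 10 guide strands, the other strands of the 3 clusters, miRNAs with a shared seed, blood cell miRNAs and the 3 nearest to the guide strands in level. The guide strands were listed by name, with no threshold on a measured value, but this list and the others were chosen with earlier results of these data known. Alternatives covered the detection call, scaling, background correction, probe summary, the filter on dim miRNAs, the deposited log2 table and each replicate left out. Mature sequences and loci came from RefSeq (GRCm38.p6), which matched 1608 of 1881 array names. Software was R 4.3.3 (limma 3.58.1, for normexp with offset 50) and Python 3.11.15 (pandas 2.3.3, numpy 2.4.6, matplotlib 3.10.9).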

Additional observations from a re-analysis of the deposited data

How the results depend on the processing

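The count of detected guide strands was 5 with the software's call and also with either replicate left out (5 to 5). It fell to 3 (miR-20a-5p, miR-19b-3p and miR-92a-3p) when at least 50% of a probe's spots had to be well above background, a call that 7.07% of all miRNAs passed. It was 1 (miR-20a-5p) when every probe had to exceed 3 errors (7.5% of all miRNAs), and 7, with miR-93-5p and miR-25-3p added, when the spots only had to be positive and significant (25.4%). That last call also took in 2 other strands of the clusters (miR-18b-5p and miR-18b-3p) and 2 blood cell miRNAs (miR-486a-5p and miR-223-3p), and both counts were 0 under the remaining calls.

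The median level of the detected guide strands was -2.76, and -2.80 to -2.63 with 1 replicate left out. It was 1.46 when scaled to the 75th percentile over all probes, -1.57 when scaled to the median, -0.57 with normexp, -0.97 by the brightest probe, -1.11 by the total gene signal, -1.75 by the sum of the detected probes, 2.14 in the deposited log2 table and -3.60 with the log taken for each spot, the last chosen after seeing the data. Except by the brightest probe and with the log for each spot, the zero point differed. Values with another zero point cannot be set beside -2.76. Scaling to all probes or to the median left the ranks of the detected guide strands unchanged. Guide strands above the median of detected miRNAs numbered 2, or 1 to 2 with 1 replicate left out (1 without replicate 2). They numbered 3 by the brightest probe, and 3 by the total gene signal with miR-20b-5p among them. Against the median of all miRNAs with no filter, 7 of 10 were above, undetected strands among them. That median is set mostly by background, since 1621 of all 1881 miRNAs were detected on neither array. The highest guide strand ranked 64, and 54 to 65 under the other settings or 59 to 74 with 1 replicate left out. Over 11 settings, miR-20a-5p ranked 59 to 93, miR-92a-3p 54 to 115, miR-19b-3p 100 to 207, miR-20b-5p 84 to 214 and miR-106b-5p 206 to 216. The 84 came from the total gene signal, which for miR-20b-5p held the total of miR-20a-5p as well, and without that setting it ranked 199 to 214. Signals near 3 errors limit what can be said of miR-20b-5p, miR-106b-5p and miR-25-3p. No paired analysis was possible because both arrays belong to the same group.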

Other observations

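The software's total signal of a miRNA was larger than the sum of its detected probes for 2 of the 5 detected guide strands. Such an excess was not particular to them, and its share over all detected miRNAs was not counted. In replicate 1 the total was 538.5 against 2.46 for miR-5132-3p and 73.4 against 1.04 for miR-338-5p. For miR-494-3p both were 2.41. For miR-20b-5p the total was 13.4 in replicate 1, whereas its detected probe gave 2.17, and the excess of 11.2 equalled the total of miR-20a-5p on that array. In replicate 2 the total was 15.6 against 2.18, and the excess of 13.4 again equalled the total of miR-20a-5p. For miR-92a-3p the total was 24.9 against 11.8 in replicate 1 and 24.4 against 11.9 in replicate 2. The excess was 13.1, the total of miR-877-5p, in replicate 1 and 12.6, the total of miR-877-3p, in replicate 2. The probe signals used for the levels above do not hold these totals.

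In the deposited log2 table, whose making is not given, both columns held the same sorted values (1902 of 1902 within 1e-06). In each column -3.32 was both the median and the lowest value. The columns thus had the same distribution, so their likeness as a whole is no measure of agreement between the experiments. Of the guide strands, 7 exceeded that lowest value in both columns, beside 285 of the 1881 miRNAs (15.2%). The columns gave 3.57 and 4.01 for miR-20a-5p and 3.67 and 3.87 for miR-92a-3p. For miR-19b-3p they gave 1.86 and 2.42, for miR-106b-5p -0.85 and 1.33, and for miR-20b-5p -0.88 and 0.40. The undetected strands miR-93-5p and miR-18a-5p exceeded it in both columns, miR-19a-3p and miR-25-3p in the second only, and miR-17-5p in neither.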
